A study of Rattus norvegicus with 12 samples.

Results

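This account follows 9 genes that write, remove, read or work beside DNA methylation and repressive histone marks in the rat mammary gland: Dnmt1, Dnmt3a, Dnmt3b, Tet2, Tet3, Uhrf1, Ezh2, Sirt1 and Mbd2. They were taken from the array by gene name, which found 8 of the 9 (10 probes) among 26456 named genes. No probe carried the name Sirt1, and 2 probes whose description reads Sirtuin 1 were used in its place. Total RNA of the lumbar mammary gland of female Wistar rats was hybridised to 12 one-colour Agilent arrays, 3 per group. NP rats were born to dams on a diet with 17.0% protein throughout pregnancy (NP, normal protein), and LP rats to dams on 8.8% protein (LP, low protein). Litters were cut to 6 females, and both groups received the same chow during suckling and after weaning. Glands were taken on day 21, when the pups were weaned, and on day 28, and visible lymph nodes had been removed. The material is therefore whole gland with its fat pad, in which fewer cells of a type and less RNA per cell cannot be told apart. The labels give the arrays names such as 4a or 7f and do not say which rats shared a litter, so that p-values measure the spread between these samples.

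DNA methylation in mammals is set by DNMT3A and DNMT3B, which methylate unmarked CpG sites, and is copied to the new strand after DNA replication by DNMT1, which UHRF1 brings to half-methylated sites. TET enzymes oxidise the methyl group, after which base excision repair can replace the base. MBD2 reads methylated CpG and belongs to the NuRD corepressor complex, EZH2 is the enzyme of Polycomb repressive complex 2 that methylates lysine 27 of histone H3, and SIRT1 is an NAD-dependent deacetylase.

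All values below are log2 intensities relative to the 75th percentile of the gene spots of the same array. Differences were tested with limma in 1 fit over the 4 groups, on the 23209 probes (20199 genes) that the scanner software called well above background (brighter than the local background by its own criterion) in 3 or more of the 12 samples. That call was given to 74.8% to 79.6% of gene spots per array and 0 spots were saturated. Day 21 and day 28 lay on different slides, and day and slide cannot be told apart. The upper row of a slide held all 6 NP arrays and 2 of the 6 LP arrays. All 8 luminal epithelium markers on the array (Krt8, Krt18, Epcam and others) were well above background on every array, and so were all 8 adipocyte markers. Of the 5 basal epithelium markers with a probe, 4 or 5 were.

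A pair of arrays stood apart on lists of marker genes. The mean of 8 lymphocyte markers was -5.89 on LP 6a of day 21, with 5 of the 8 well above background, against -1.06 to 0.27 on the other 11 arrays. The mean of 14 proliferation genes (Top2a, Ccnb1, Cdk1 and others) was -3.42 on NP 4f of day 28 and -1.43 to -0.58 on the other 11. The mean of 8 skeletal muscle genes ran from -5.05 to 2.92.

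The array reads each gene through 60-base oligonucleotides, of which the following carry the results on Uhrf1 and Ezh2, the pair that varied together, and those on repeated measurements of a gene. The sequences are those of the array files, and capitals mark CpG dinucleotides. The Uhrf1 probe spans 1304 bases of the rn4 genome (chrUn:25453160-25454463, minus strand), more than its own length. The Ezh2 probe lies at chr4:75713707-75713766 (minus strand) and the second Dnmt3b probe at chr3:144060143-144060202 (plus strand).
Uhrf1 probe: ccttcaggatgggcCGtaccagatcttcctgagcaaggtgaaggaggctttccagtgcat
Ezh2 probe: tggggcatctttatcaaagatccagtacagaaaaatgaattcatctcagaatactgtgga
Dnmt3b second probe: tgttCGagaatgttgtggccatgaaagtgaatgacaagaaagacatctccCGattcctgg
Both Tet2 probes hold the same 29 bases, aggtcacagggccttacaacacatatgta, so that they are repeated readings of 1 stretch of the transcript. The first lies at chr2:231016073-231016132 and the second at chr2:231016042-231016101, both on the minus strand. The files give no exon or UTR annotation for these positions.

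None of the 9 genes passed an adjusted p of 0.05 between LP and NP rats or between the days, and 1 of them could not be measured. Among the 8 measured genes, the differences at day 21 lay between -0.27 (Dnmt3b, -0.08 without LP 6a) and 0.27 (Uhrf1, 0.02 without NP 6a). At day 28, Dnmt3a, Dnmt3b, Tet2, Tet3 and Sirt1 were lower in LP rats by 0.21 to 0.52 on the log2 scale, while Uhrf1 and Ezh2 were 0.70 and 0.19 higher and Mbd2 differed by 0.01. Dnmt3a, Tet3 and Sirt1 had an unadjusted p under 0.05 at day 28, a threshold that 8.07% of all tested probes passed there.

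**Figure D1:**
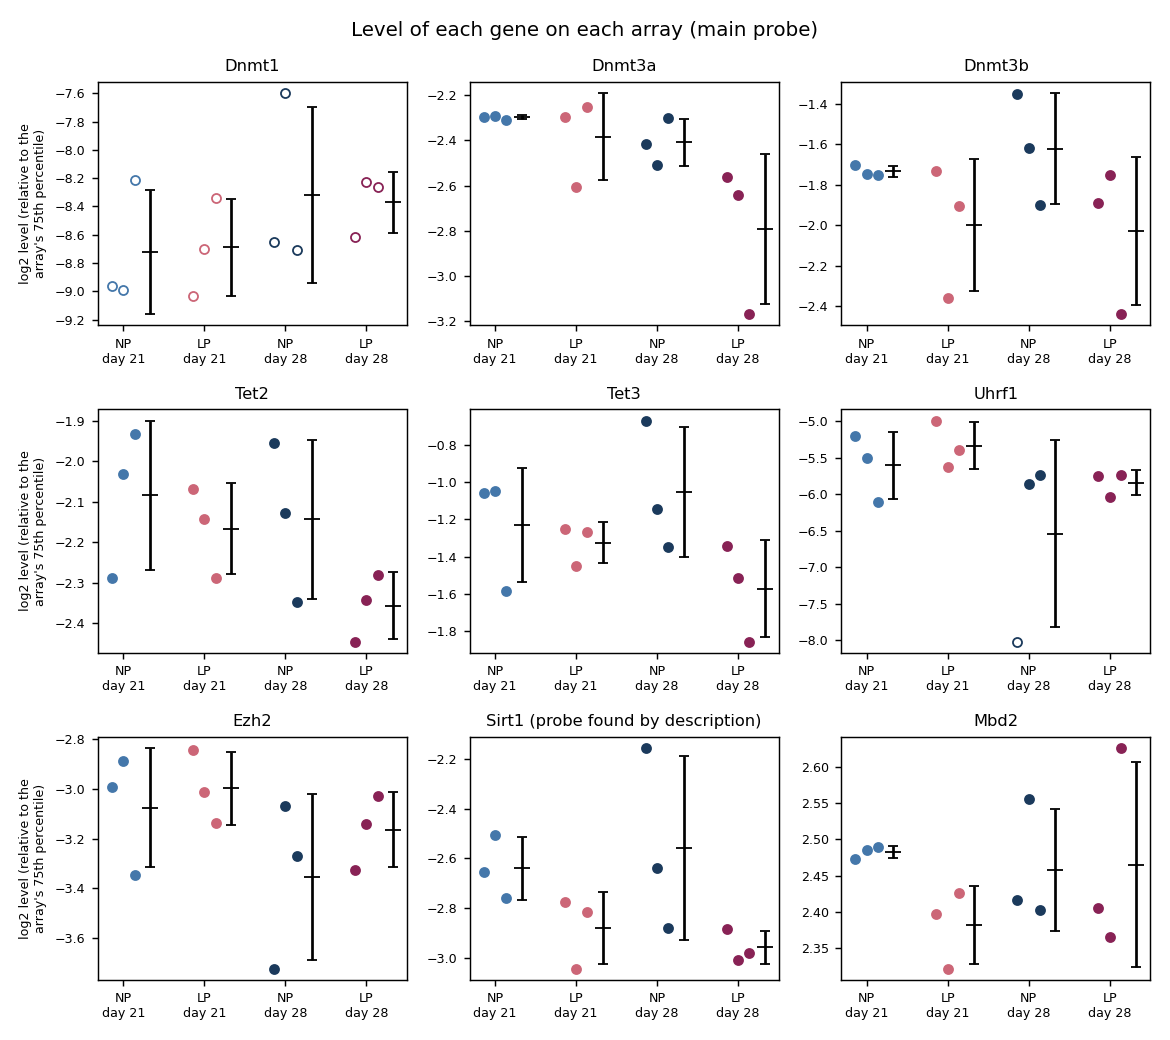
Log2 level of the main probe of each gene (vertical axis, relative to the array's 75th percentile, with a range of its own in each panel) on each of the 12 arrays, by group (horizontal axis). Points are arrays, open points are arrays on which the probe was not well above background, and bars are the mean and SD of 3 arrays. Dnmt1 has open points only, and the open Uhrf1 point at -8.02 is NP 4f of day 28.

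Dnmt1, the maintenance methyltransferase, stayed under the background call in all 12 samples. Its single probe read between -9.03 and -7.60, while the dimmest single spot that passed the call lay between -7.24 and -6.28, depending on the array. No fold is given for it, and the probe gives only an upper limit to its signal. The other probe-level limit concerned Dnmt3b, whose second probe was well above background on 6 of 12 arrays.

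Uhrf1, the partner that recruits DNMT1, was read on 11 arrays, at a low signal. The SD between its 2 spots of the same array was 0.0067 to 0.627, with a median of 0.165 and the highest value on NP 4f of day 28. In NP rats of day 21 Uhrf1 was at -5.20 (4a), -5.51 (5a) and -6.11 (6a), and in LP rats at -4.99 (4a), -5.63 (6a) and -5.39 (7c). On day 28 the NP rats gave -8.02 (4f, not well above background), -5.86 (5f) and -5.74 (6f), and the LP rats -5.75 (4f), -6.03 (6f) and -5.74 (7f). The groups overlapped on both days, and NP 4f lay far below all other arrays. The difference between LP and NP rats was 0.27 ± 0.52 (SE) at day 21 and 0.70 ± 0.52 at day 28 (limma, adjusted p = 0.95 and 0.61). Without NP 4f it was -0.04 at day 28, so that the sign of the difference rested on that array.

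The de novo methyltransferase Dnmt3a was at -2.30, -2.29 and -2.31 in NP rats of day 21 and at -2.30 (4a), -2.61 (6a) and -2.25 (7c) in LP rats. On day 28 it was at -2.42 (4f), -2.51 (5f) and -2.30 (6f) in NP rats and at -2.56 (4f), -2.64 (6f) and -3.17 (7f) in LP rats. On that day all LP arrays lay below all NP arrays, with LP 7f the lowest. The difference was -0.38 ± 0.16 at day 28 (limma, unadjusted p = 0.039, adjusted p = 0.58), and -0.19 without LP 7f. At day 21 it was -0.09 ± 0.16, with a 95% interval from -0.44 to 0.27.

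Dnmt3b, the second de novo enzyme, was at -1.70, -1.75 and -1.75 in NP rats of day 21 and at -1.73 (4a), -2.36 (6a) and -1.91 (7c) in LP rats. Its day 28 values were -1.35 (4f), -1.62 (5f) and -1.90 (6f) in NP rats and -1.89 (4f), -1.75 (6f) and -2.44 (7f) in LP rats. LP 7f and LP 6a held the lowest values of Dnmt3b and also the lowest means of the lymphocyte markers (-1.06 and -5.89). The part of these cells in the result was not tested. The difference between LP and NP rats was -0.27 ± 0.22 at day 21 and -0.41 ± 0.22 at day 28 (limma, adjusted p = 0.88 and 0.58). It was -0.08 at day 21 without LP 6a, and at day 28 -0.20 without LP 7f and -0.27 without NP 4f. The dim second probe gave -0.42 ± 0.21 and -0.47 ± 0.21, lower in LP rats on both days as well (limma, unadjusted p = 0.073 and 0.048, adjusted p = 0.86 and 0.58).

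Of the TET dioxygenases, Tet3 was at -1.06 (4a), -1.05 (5a) and -1.58 (6a) in NP rats of day 21 and at -1.25 (4a), -1.45 (6a) and -1.27 (7c) in LP rats. On day 28 it was at -0.67 (4f), -1.15 (5f) and -1.35 (6f) in NP rats and at -1.35 (4f), -1.51 (6f) and -1.86 (7f) in LP rats. NP 4f was the highest array and LP 7f the lowest, and NP 6f and LP 4f met between the groups, which overlapped by less than 0.01. The difference at day 28 was -0.52 ± 0.21 (limma, unadjusted p = 0.034, adjusted p = 0.58) and -0.32 without NP 4f. At day 21 it was -0.09 ± 0.21.

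Tet2 varied less. Its main probe ran from -2.45 to -1.93 over the 12 arrays, and the difference between LP and NP rats was -0.08 ± 0.13 at day 21 and -0.21 ± 0.13 at day 28, or -0.12 there without NP 4f. The overlapping second probe gave 0.07 ± 0.13 and -0.23 ± 0.13. At day 28 its LP values (-2.72, -2.76 and -2.65 in 4f, 6f and 7f) lay at or below the NP values (-2.22, -2.58 and -2.65 in 4f, 5f and 6f). Between LP and NP rats, no adjusted p of either probe was under 0.58 on either day.

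Sirt1 was read by the pair of probes found through their description. The brighter one was at -2.65 (4a), -2.51 (5a) and -2.76 (6a) in NP rats of day 21 and at -2.78 (4a), -3.04 (6a) and -2.82 (7c) in LP rats. On day 28 it was at -2.16 (4f), -2.64 (5f) and -2.88 (6f) in NP rats and at -2.88 (4f), -3.01 (6f) and -2.98 (7f) in LP rats. The LP arrays lay below the NP arrays on both days, by a narrow gap. The difference was -0.24 ± 0.17 at day 21 and -0.40 ± 0.17 at day 28 (limma, unadjusted p = 0.19 and 0.040, adjusted p = 0.86 and 0.58), and -0.20 at day 28 without NP 4f. The second probe gave 0.03 ± 0.16 and -0.24 ± 0.16, so that the probes disagreed in sign at day 21.

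Ezh2, the Polycomb methyltransferase, was at -2.99 (4a), -2.89 (5a) and -3.35 (6a) in NP rats of day 21 and at -2.84 (4a), -3.01 (6a) and -3.14 (7c) in LP rats. On day 28 the values were -3.72 (4f), -3.07 (5f) and -3.27 (6f) in NP rats and -3.33 (4f), -3.14 (6f) and -3.03 (7f) in LP rats. The groups overlapped on both days, and NP 4f was again the lowest array. The difference was 0.08 ± 0.18 at day 21 and 0.19 ± 0.18 at day 28 (limma, adjusted p = 0.96 and 0.68), and 0.01 at day 28 without NP 4f.

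Mbd2, the methyl-CpG reader, was measured with the least spread, on 10 spots per array (9 on NP 4f). It ran from 2.32 (LP 6a of day 21) to 2.63 (LP 7f of day 28), with an SD over the 12 arrays of 0.08. The SD between spots of the same array was 0.02 to 0.09. At day 21 the LP arrays (2.40, 2.32 and 2.43) lay below the NP arrays (2.47, 2.49 and 2.49), a difference of -0.10 ± 0.09 (limma, adjusted p = 0.90). At day 28 it was 0.01 ± 0.09, with a 95% interval from -0.20 to 0.22. Of the 8 genes, Mbd2 had the narrowest interval at day 28 and Uhrf1 the widest (-0.46 to 1.86).

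**Figure D2:**
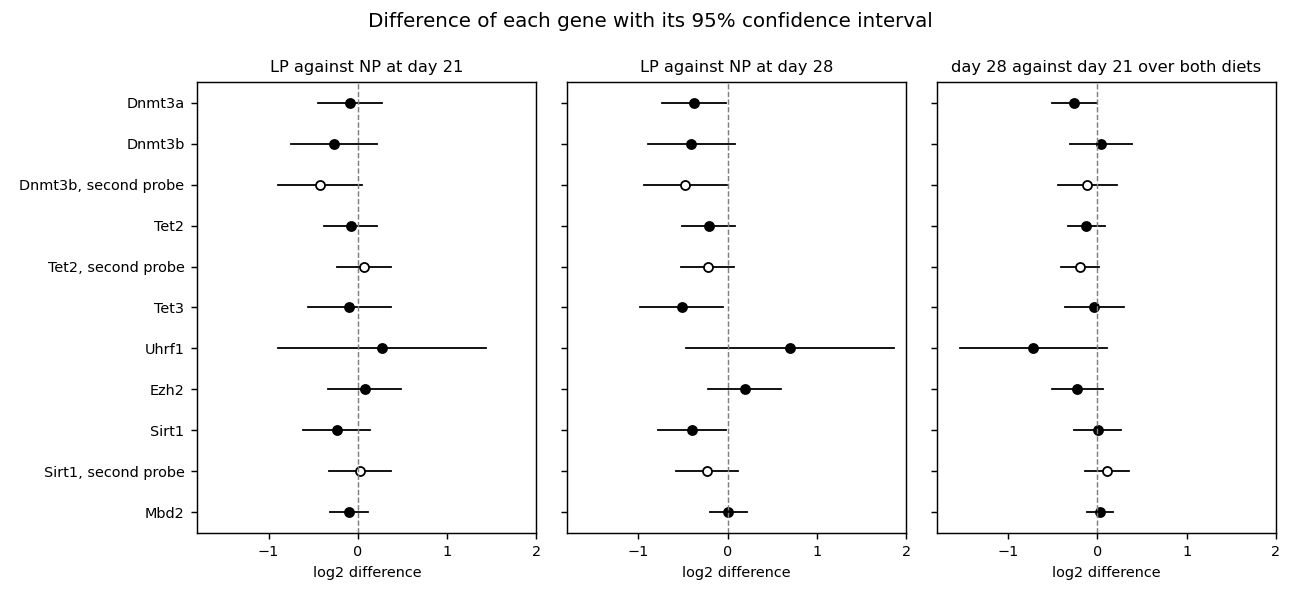
Log2 difference of each tested probe (horizontal axis) with its 95% confidence interval, for LP minus NP at day 21, LP minus NP at day 28, and day 28 minus day 21 over both diets. Filled points are the main probe of a gene and open points its second probe. Before adjustment, the day 28 intervals of Dnmt3a, Tet3 and Sirt1 (main probe) end between -0.05 and -0.02. Those of the second Dnmt3b probe at day 28 and of Dnmt3a over both diets end at -0.006 and -0.005. All Uhrf1 intervals are wide and cross 0.

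Counted over the genes, 0 of 8 passed an adjusted p of 0.05 at day 21, where 0% of the 23209 tested probes did, and 0 of 8 passed an unadjusted p of 0.05, where 4.36% did. At day 28, 0 of 8 passed the adjusted p, against 0% of all probes in limma, and 3 of 8 the unadjusted p, all lower in LP rats, against 8.07% of all probes in either direction and 6.09% lower. The count of 3 was 0 without NP 4f and 0 without LP 7f. The median difference of the 8 genes was -0.09 at day 21 (-0.05 without LP 6a) and -0.30 at day 28 (-0.16 without NP 4f and -0.20 without LP 7f), beside 0.01 and -0.05 for all tested probes. Groups that did not overlap were found for 2 of 8 genes at day 21 (Sirt1 and Mbd2) and 2 of 8 at day 28 (Dnmt3a and Sirt1), all lower in LP rats, beside 5.94% and 12.4% of all probes with LP lower.

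Whether the difference between LP and NP rats changed from day 21 to day 28 was tested as an interaction. It lay between -0.42 (Tet3) and 0.43 (Uhrf1), with 0 of 8 genes under an unadjusted p of 0.05 (2.26% of all tested probes) and an adjusted p of 1 for each in limma. The 95% interval was -1.08 to 0.24 for Tet3 and -0.80 to 0.21 for Dnmt3a.

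Between the days, 0 of the 8 genes passed an adjusted p of 0.05 in NP rats, in LP rats or over both diets, beside 0.25%, 0% and 1.81% of all tested probes. Dnmt3a came nearest. It was lower on day 28 than on day 21 by 0.26 ± 0.11 over both diets (limma, unadjusted p = 0.046, adjusted p = 0.25), made up of -0.11 ± 0.16 in NP rats and -0.41 ± 0.16 in LP rats. Without LP 7f it was -0.16 over both diets and -0.22 in LP rats. Uhrf1 differed by -0.72 ± 0.37 over both diets (adjusted p = 0.32) and by -0.35 without NP 4f, and all LP values of day 28 lay below all LP values of day 21, as for 11.5% of all probes. Ezh2 differed by -0.22 ± 0.13 (adjusted p = 0.37), and by -0.13 without NP 4f. For the second Tet2 probe, too, all LP values of day 28 lay below all LP values of day 21, which came from other rats. The difference was -0.34 ± 0.13 (limma, unadjusted p = 0.028, adjusted p = 0.45). The other genes differed by less than 0.13 over both diets. At an unadjusted p of 0.05, 1 of 8 genes passed over both diets (Dnmt3a, 19.2% of all probes), 1 in LP rats (Dnmt3a, 10.1%) and 0 in NP rats (12.8%). Over both diets 0 passed with quantile normalization, normexp background or the deposited table, and 0 when NP 4a, NP 5a, LP 4a or LP 7c of day 21 or NP 4f or LP 7f of day 28 was left out. In LP rats 0 passed without LP 4a, LP 7c or LP 7f.

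Uhrf1 and Ezh2 are known as genes of dividing cells, and their levels were set against the mean of the 14 proliferation genes over the 12 arrays. Uhrf1 had a Pearson r of 0.94 and a Spearman rho of 0.75 (permutation test, two-sided, p = 0.0013 and 0.0074, both adjusted over 8 genes to 0.0063 and 0.030). Ezh2 had an r of 0.85 and a rho of 0.75 (permutation p = 0.0016 and 0.0070, adjusted 0.0063 and 0.030). Sirt1 ran the other way with an r of -0.78 (permutation p = 0.016, adjusted 0.044) and a rho of -0.48 (p = 0.12, adjusted 0.31). The remaining 5 genes lay between an r of -0.58 (Tet3) and -0.04 (Mbd2), with adjusted permutation p-values of 0.12 or more.

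The relations were computed again without the arrays at the ends of the scale. Without the 2 arrays farthest from the median of the proliferation genes (NP 4f of day 28 and NP 4a of day 21), r was 0.57 for Uhrf1, 0.62 for Ezh2 and -0.51 for Sirt1, with permutation p-values of 0.086, 0.058 and 0.14. These were 0.25 for each after adjustment, so that none of the relations passed without those arrays. Without NP 4f alone r was 0.65, 0.63 and -0.28, with permutation p-values of 0.031, 0.039 and 0.41 (adjusted 0.16, 0.16 and 0.65). With quantile normalization and without NP 4f it was 0.74 for Uhrf1 and 0.71 for Ezh2 (permutation p = 0.011 and 0.016, adjusted 0.063 for each). On deviations from the group means and without NP 4f, it was 0.81 for Uhrf1 (permutation p = 0.0027, adjusted 0.021) and 0.67 for Ezh2 (p = 0.025, adjusted 0.10), with permutations that do not count the fitted group means. Uhrf1 and Ezh2 thus kept a positive r without NP 4f, which passed the adjusted test for Uhrf1 on deviations alone. On NP 4f the proliferation genes, Uhrf1 and Ezh2 were lowest and Sirt1 and Tet3 highest of the 12 arrays. Within the 6 arrays of a day, r was 0.76 for Uhrf1 and 0.70 for Ezh2 at day 21 (exact permutation p = 0.075 and 0.12) and 0.96 and 0.90 at day 28 (exact p = 0.11 and 0.054). For Sirt1 it was -0.29 at day 21 and -0.97 at day 28 (exact p = 0.56 and 0.0028), and for Tet3 0.42 and -0.88 (exact p = 0.41 and 0.0042). The day 28 arrays include NP 4f. On deviations from the group means over all 12 arrays, r was -0.63 for Tet2 and -0.81 for Sirt1 (permutation p = 0.022 and 0.0035, adjusted 0.044 and 0.0093). Without NP 4f these were -0.50 and -0.59 (permutation p = 0.12 and 0.058, adjusted 0.24 and 0.15).

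**Figure D3:**
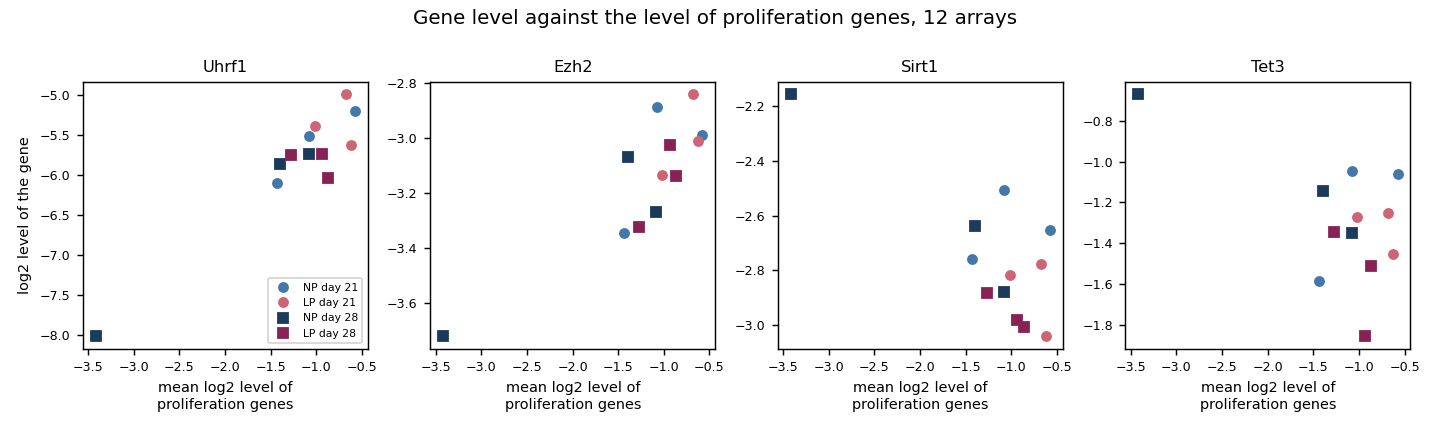
Log2 level of Uhrf1, Ezh2, Sirt1 and Tet3 (vertical axes) against the mean log2 level of 14 proliferation genes (horizontal axes) on 12 arrays, with circles for day 21, squares for day 28, blue for NP and red for LP. The single square at -3.42 on the horizontal axes is NP 4f of day 28, and the other 11 arrays lie between -1.43 and -0.58.

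As a description, Uhrf1 and Ezh2 had a Pearson r of 0.87 with each other over the 12 arrays and 0.70 without NP 4f. Among 12906 other named genes, those with the highest r to Uhrf1 were Tyms, which makes thymidylate for DNA synthesis (0.97), the tubulin gene Tuba1c (0.97), the BRCA1 partner Bard1 (0.97), Mybl2, a transcription factor of the cell cycle (0.96), and Kntc1, a kinetochore gene (0.96). Without NP 4f they were at 0.75 to 0.87. For Ezh2 they were Ube2v1 (0.94), the ubiquitin ligase gene Traip (0.94), Dbf4, the activator of a replication kinase (0.92), Cdc45l, a part of the replicative helicase (0.92), and Xkr5 (0.92), at 0.81 to 0.87 without NP 4f. The points share arrays and scaling, and no test was made. Tet3 and Sirt1 had an r of 0.87 with each other, and 0.75 without NP 4f.

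Promoter windows of all 9 genes but Dnmt3b were found in a RefSeq set (GRCr8), each taken as the 250 bases before a listed transcript start. They were searched on both strands for the E2F-type words TTTGGCGC, TTTCCCGC, TTTCGCGC and TTTGCCGC, which 1.73% of all 33469 windows hold and 4.14% of the 8639 windows with at least 15 CpG. Among the 8 genes, only Uhrf1 had a match, in the third of its 3 windows (chr9:1222936-1223185, plus strand, 30 CpG). The first match, TTTCCCGC on the minus strand, lies 193 to 186 bases before the start and the second, TTTCGCGC, 99 to 92 bases before it. That window is shown with the matches in capitals, as the only one of the 8 genes with a match.
Uhrf1 window: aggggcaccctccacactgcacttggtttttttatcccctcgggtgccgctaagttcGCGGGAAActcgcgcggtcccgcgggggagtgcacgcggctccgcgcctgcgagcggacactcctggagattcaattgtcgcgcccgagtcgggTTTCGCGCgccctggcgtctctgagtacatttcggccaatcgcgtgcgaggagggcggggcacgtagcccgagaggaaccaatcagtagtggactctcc
The Ezh2 window (23 CpG) did not hold these letters.

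The genes around the 9 were followed in 10 lists. Among DNA methyltransferases and their partners, 9 of 10 were tested, and 0 rose or fell in any contrast at an adjusted p of 0.05. Their median difference was -0.09 at day 21 (0.02 without LP 6a) and -0.22 at day 28 (-0.04 without LP 7f). Dnmt3l, a cofactor of the de novo enzymes, was at -5.04 on LP 6a of day 21 and -4.01 on LP 7f of day 28, and at -2.72 to -1.74 on the other 10 arrays. These are the same arrays that had the lowest lymphocyte means, and the part of those cells was not tested. Uhrf2, a relative of Uhrf1, was lower in LP rats by 0.43 at day 21 and was also lower at day 28 (adjusted p = 0.86 and 0.58). The same 2 arrays were again the lowest. At day 21 Uhrf2 was at 0.43 on LP 6a, 1.05 on LP 7c and 1.21 on LP 4a, and at 1.22 to 1.45 in NP rats. At day 28 it was at 0.76 on LP 7f and up to 1.22 (4f) in LP rats, and at 1.31 to 1.54 in NP rats.

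In the list of TET enzymes and base excision, 14 of 15 genes were tested and 1 passed, between the days over both diets, where 1.81% of all probes did. Ung, the uracil glycosylase, fell from day 21 to day 28 by 0.47 ± 0.09 over both diets (limma, adjusted p = 0.041), a call that held in 7 of 21 alternatives (adjusted p between 0.028 and 0.11). Its means were -1.81 ± 0.12 (SD, n = 3) and -1.47 ± 0.21 in NP and LP rats of day 21 and -2.08 ± 0.16 and -2.15 ± 0.09 on day 28. Tet1 was read at a lower signal and differed by 0.12 at day 21 and -0.06 at day 28. Neil1, another glycosylase of this route, was lower in LP rats by 0.46 and 0.51 (unadjusted p = 0.028 and 0.016, adjusted p = 0.86 and 0.58). The median difference of the list was -0.01 at day 21 and -0.07 at day 28.

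Among methyl-CpG readers (7 of 10 tested) and NuRD subunits (11 of 13), 0 passed an adjusted p of 0.05 in any contrast. The NuRD helicase gene Chd4 was lower in LP rats of day 28 by 0.30 ± 0.11 (adjusted p = 0.58). Hdac2 was not well above background on any array. The medians at day 28 were -0.12 for the readers and 0.06 for NuRD (-0.02 and -0.01 without NP 4f).

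Among Polycomb genes, 0 of 9 tested members of complex 2 and 1 of 15 of complex 1 passed, the latter between the days over both diets, with 1.81% of all probes passing there. Phc1, a subunit of complex 1, fell from day 21 to day 28 by 0.38 ± 0.08 over both diets (adjusted p = 0.044). That call held in 6 of 21 alternatives (adjusted p between 0.033 and 0.14). The medians at day 28 were -0.05 for complex 1 and -0.01 for complex 2 (-0.02 and -0.11 without NP 4f), beside -0.05 for all tested probes. In complex 1 the differences at day 28 ran from -0.585 to 0.343, with 1 gene lower and 1 higher at an unadjusted p under 0.05. The lower one was Bmi1, another subunit of that complex. It was at -3.21 ± 0.14 in NP and -3.66 ± 0.14 in LP rats of day 28, a difference of -0.45 ± 0.12 (limma, unadjusted p = 0.0033, adjusted p = 0.58). Ezh1, the second enzyme of complex 2, was lower in LP rats of day 28 by 0.39 ± 0.15 (unadjusted p = 0.031, adjusted p = 0.58), whereas Ezh2 was 0.19 higher there. Both differences leaned on NP 4f. Ezh1 was at 3.085 on that array, at 2.526 and 2.471 on NP 5f and 6f, and at 2.272 to 2.367 in LP rats. Ezh2 differed by 0.01 without NP 4f. The demethylase gene Kdm6b, which removes the mark set by EZH2, was lower in LP rats of day 28 by 0.35 ± 0.12 (unadjusted p = 0.015, adjusted p = 0.58). Its groups did not overlap, as for 12.4% of all probes with LP lower. The Kdm6b difference was -0.24 without NP 4f and -0.29 without LP 7f.

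Of sirtuins and genes of NAD supply, 13 of 13 were tested, of histone deacetylases 9 of 11, and of genes of methyl donor supply 16 of 16, and in each list 0 passed in any contrast. Their medians at day 28 were -0.08, -0.05 and -0.02, beside -0.05 for all tested probes. Sirt2 was lower by 0.25 ± 0.07 on day 28 than on day 21 over both diets (limma, unadjusted p = 0.0052, adjusted p = 0.10). In that list and contrast 8 genes were higher and 5 lower, from -0.25 to 0.58, with 1 higher and 2 lower at an unadjusted p under 0.05. Shmt1, a serine hydroxymethyltransferase, was lower in LP rats of day 28 by 0.34 ± 0.13 (limma, unadjusted p = 0.028, adjusted p = 0.58). Of the genes of methyl donor supply, 7 were higher and 9 lower there, from -0.34 to 1.09, with 0 higher and 1 lower at an unadjusted p under 0.05.

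**Figure D4:**
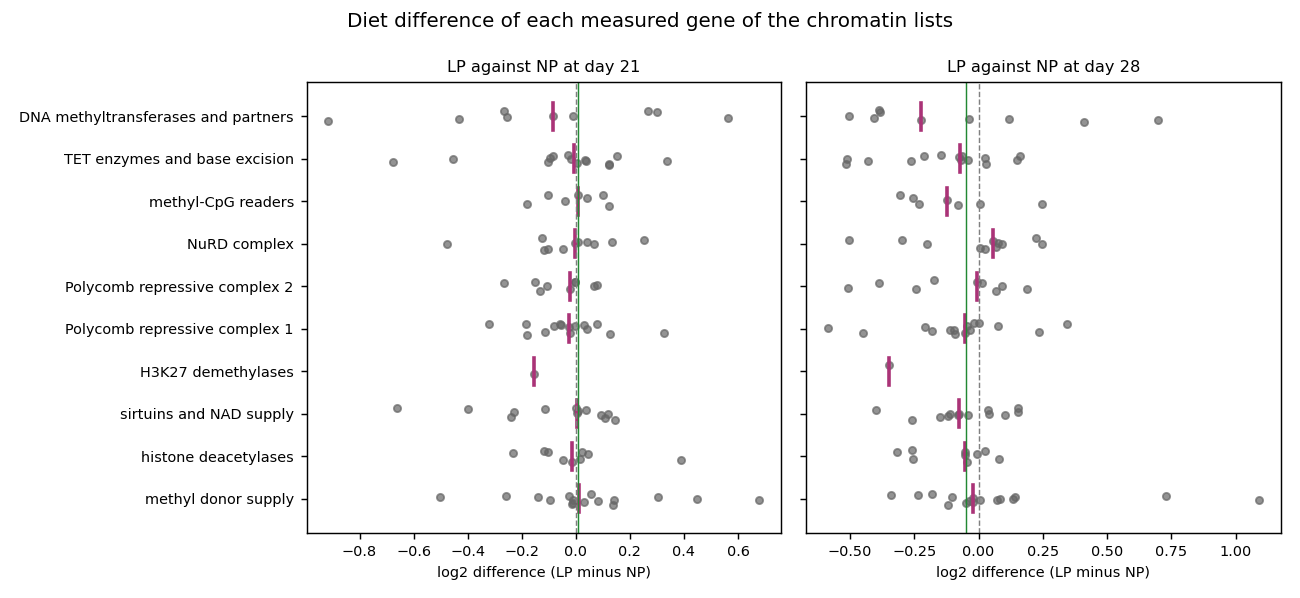
Log2 difference between LP and NP rats (horizontal axis) of each tested gene in 10 chromatin and methylation lists (rows) at day 21 and day 28. Grey points are genes, coloured bars are list medians, the solid vertical line is the median of all tested probes and the dashed line is 0. At day 28 the list of DNA methyltransferases and partners had a median of -0.22, with its genes between -0.50 and 0.70.

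The marker lists gave the setting of these values. The 14 tested proliferation genes were higher in LP rats of day 28 with a median difference of 0.90, or 0.21 without NP 4f, with 0 of 14 passing an unadjusted p of 0.05 either way. Of 14 DNA replication genes, 7 had an unadjusted p under 0.05 and a lower level on day 28 over both diets, beside 19.2% of all probes in either direction, with a list median of -0.37 (-0.24 without NP 4f) and 0 passing the adjusted p. The 8 lymphocyte markers had a median of -2.22 at day 21, or -0.33 without LP 6a, and -0.61 at day 28, or -0.41 without LP 7f. Their groups did not overlap, with LP lower, for 5 of 8 at day 21 and 6 of 8 at day 28, beside 5.94% and 12.4% of all probes. The 8 luminal epithelium markers had a median of 0.79 at day 21 (0.47 without LP 6a) and 0.56 at day 28 (0.21 without NP 4f). For the 5 basal epithelium markers it was 0.94 at day 21 (0.45 without LP 6a) and 0.88 at day 28 (0.23 without NP 4f), with 1 of 5 lower at day 28. No marker of these lists had an adjusted p under 0.05. The luminal mean ranged from 0.05 to 1.22 in NP and from 0.53 to 2.14 in LP rats of day 21, and from -0.0040 to 1.15 and 1.14 to 1.38 on day 28. The part of these cell types in the differences of the 9 genes was not tested.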

How the data were processed

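Total RNA of 12 lumbar mammary glands was read on one-colour (Cy3) Agilent rat arrays, 3 per group. The files deposited by the authors come from Agilent Feature Extraction 10.7.3.1, and their processed intensity is background-subtracted and corrected within the array, with no scaling between arrays. They also deposited a table holding the ratio of each signal to a constant of its array, which was used as an alternative after taking log2. The authors called genes with Rosetta Resolver, which could not be repeated here. Coordinates are those of the array annotation (rn4).

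Control spots (4259 per array) and outlier spots (259 to 766) were left out. Log2 intensity minus the array's 75th percentile was averaged over the spots of a probe. A probe was well above background where at least 0.5 of its spots were. Tests used limma 3.58.1 in R 4.3.3 (lmFit, eBayes, prior degrees of freedom 1.95) with data.table (version 1.17.8), and Benjamini-Hochberg adjustment over 23209 probes per contrast. A gene's main probe is the one with the highest mean level. Named beside the 9 genes are list genes with an adjusted p under 0.05 in a contrast and the 5 genes nearest to Uhrf1 and Ezh2. Dnmt1 was left out there, as it was not above background. Dnmt3l, Uhrf2, Tet1, Neil1, Chd4, Hdac2, Bmi1, Ezh1, Kdm6b, Sirt2 and Shmt1 were named after their values were seen. Missing list genes were matched through RefSeq accessions or older symbols. Correlations used 100000 permutations, or all 720 orders of 6 arrays. On simulated data, 112 of 200 probes changed by 1 on the log2 scale among 23177 were recovered for LP against NP at day 28, and 167 of those changed by 2. The simulated noise was independent between probes and arrays, and the changes were larger than any difference tested for the 9 genes. The recovered share therefore does not tell how often differences of their size would be found. The genes and lists were chosen with earlier results of these data known. Alternatives were another normalization (quantile), normexp background (offset 50), the deposited table, both filters on dim probes, only the arrays of a contrast, a trended robust eBayes, a block for replicate number, slide row, second probes, and leaving out arrays.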

Additional observations from a re-analysis of the deposited data

How the results depend on the processing

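None of the 8 measured genes passed an adjusted p of 0.05 in any of the 860 alternative fits of the 48 differences. Of these alternatives, 801 kept the direction and 59 turned it. Beside the settings below these were quantile normalization, normexp background, the deposited table, both filters on dim probes, only the arrays of a contrast, trend with robust estimation, and each array left out. Leaving out the pair of arrays that stood apart, and leaving arrays out of the gene lists, was chosen after seeing the data. Slide could not be fitted as a block, since it is the same as day and already inside the 4 groups.

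With the row on the slide as a covariate, the difference at day 21 turned to 0.07 for Dnmt3a and 0.05 for Tet3, and at day 28 to -0.02 for Mbd2, which was also -0.01 with quantile normalization. The second probe turned Tet2 (0.07) and Sirt1 (0.03) at day 21, and Dnmt3b between the days in NP rats (-0.09) and over both diets (-0.11). With normexp background, the day difference turned to 0.06 for Tet2 in NP rats, to 0.07 for Dnmt3b, 0.01 for Ezh2 and 0.02 for Sirt1 in LP rats, and to 0.01 for Tet2 over both diets, and Mbd2 was at -0.02 over both diets with quantile normalization. Without NP 4f and LP 6a together, Dnmt3a at day 21 was 0.02, Uhrf1 and Mbd2 at day 28 were -0.04 and -0.01, and the change of the diet difference was -0.46 for Uhrf1 and -0.08 for Ezh2. The day difference was then -0.02, -0.02 and -0.12 for Dnmt3b, Tet3 and Sirt1 in NP rats and -0.12 and -0.14 for Dnmt3b and Sirt1 over both diets. The r of Tet3 with the proliferation genes was 0.08 without NP 4f, and that of Mbd2 0.11 on deviations from the group means. The cause of these turns was not tested.

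Over single arrays left out, the difference between LP and NP rats ranged from -0.15 to 0.02 (Dnmt3a) and -0.06 to 0.17 (Ezh2) at day 21, and from -0.04 to 1.10 (Uhrf1) and -0.07 to 0.06 (Mbd2) at day 28. The change of the diet difference ranged from -0.32 to 0.07 (Dnmt3b), -0.31 to 0.83 (Uhrf1), -0.07 to 0.26 (Ezh2) and -0.32 to 0.04 (Sirt1). The day difference in NP rats ranged from -0.02 to 0.25 (Dnmt3b), -0.16 to 0.04 (Tet2), -0.02 to 0.32 (Tet3), -0.12 to 0.24 (Sirt1) and -0.07 to 0.003 (Mbd2), and that in LP rats from -0.21 to 0.18 (Dnmt3b). Over both diets it ranged from -0.05 to 0.14 (Dnmt3b), -0.13 to 0.04 (Tet3), -0.10 to 0.08 (Sirt1) and -0.01 to 0.05 (Mbd2). The 3 genes under an unadjusted p of 0.05 at day 28 were 0 without NP 4f, without LP 7f, with slide row and with only the arrays of that day, and 1 with quantile normalization.

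The number of all probes called between the days, 58 in NP rats, was 102 with the deposited table, 88 with probes above background on all arrays, 91 with trend and robust estimation, 36 with slide row, 0 with no filter, with only those arrays and without NP 4f and LP 6a, and 0 to 12 with each array left out. In LP rats it was 6 with normexp and 1 with only those arrays, against 0. Over both diets, 421 probes became 271 with normexp, 217 with no filter, 208 without NP 4f and LP 6a, and 99 to 398 with each array left out.

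Same-numbered arrays of 1 diet on both days had deviations from their group means that correlated at -0.06 to 0.38, and those of both diets on 1 day at 0.09 to 0.13. These values cannot show which rats shared a litter. The main fit used no block for the number. With the replicate number as a block, 0 of the 8 measured genes passed in any contrast, Mbd2 at day 28 was -0.02, and no gene had an unadjusted p under 0.05 at day 28. The probes called between the days were then 0 in NP rats and 21 over both diets.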
